A study of Mus musculus with 9 samples.

Results

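The genes of MHC class II antigen presentation described here are H2-Aa, H2-Ab1, H2-Eb1, Cd74, Ciita, H2-DMa, H2-DMb1 and H2-DMb2. These 8 genes were taken by symbol from an RNA-seq table of 18042 genes in tumour-associated macrophages. All 8 were listed and all 8 passed the filter on low counts, as did 13090 genes of the whole table. The mice were wild-type female C57BL/6 animals of 6 to 8 weeks, and each carried a subcutaneous tumour of MC38, a mouse colon carcinoma line. On day 9 after tumour cell injection the mice were divided at random into 3 groups. IN@OMVs tumours received IN@OMVs, and OMVs tumours received OMVs, each at 12.5 µg of vesicle protein per mouse, also stated as 625 µg per kg. Control tumours received the same volume of solvent, described as PBS, by the same intratumoural route. The labels spell out neither OMVs, the usual abbreviation of the outer membrane vesicles that bacteria shed, nor IN. CD11b+ F4/80+ cells were then sorted from the tumours, and polyadenylated RNA was sequenced in 3 libraries per group, 9 in all. The sources used here do not state whether a library stands for 1 mouse or for a pool, and p-values measure the spread between these libraries.

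A library held between 16813230 and 17288322 expected counts. Transcripts of Adgre1, which encodes F4/80, lay between 384 and 617 CPM (counts scaled to library size with TMM factors), and those of Itgam, which encodes CD11b, between 1080 and 1896 CPM. Of 13 macrophage marker genes 0 passed the test in any comparison by edgeR. For IN@OMVs against Control, OMVs against Control and IN@OMVs against OMVs, 5, 0 and 3 had an unadjusted p under 0.05. The shares of all genes were 19.8%, 8.44% and 14.4%, and 6.55%, 0.42% and 2.85% of all genes passed the test. The markers did not move alike: in IN@OMVs against Control 10 of 13 had a positive log2 fold change. For 5 every IN@OMVs library was above every Control library, whereas Itgam was lower in every IN@OMVs library than in every Control library. Single libraries stood apart in other cells' transcripts. Summed T cell markers of IN@OMVs 1, OMVs 1 and Control 1 came to 253, 228 and 268 CPM, against 47.8 to 111 CPM in the other 6 libraries. IN@OMVs 1 had summed fibroblast markers of 1610 CPM, against 3659 to 6066 CPM in the other 8. Results are therefore also given without these libraries.

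MHC class II molecules present peptides from ingested material to CD4+ T cells, and macrophages are among the cells that carry them. The α and β chains assemble with the invariant chain, which Cd74 encodes, and the peptide-loading molecule H2-DM later exchanges an invariant chain fragment for peptide. Transcription of these genes depends on the coactivator CIITA, which binds no DNA itself and acts through the RFX, CREB and NF-Y proteins on the X and Y boxes of class II promoters. In macrophages, interferon-γ induces Ciita, and IRF1 takes part in this.

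The promoter stretches that hold these X and Y boxes are shown for the 4 members in which they were found, since the members of this family are known for this shared element. The sequences are RefSeq's, build GRCm38.p6, all from chromosome 17, read 5′ to 3′ along the strand of the gene. Capitals mark a match to the X box, searched as AACNNTGANG or AACNNNTGANG, and to the Y box, searched as TGATTGG. The stretches are chr17:34287859-34287910 on the minus strand for H2-Aa, chr17:34305770-34305820 on the plus strand for H2-Eb1, chr17:34153091-34153142 on the plus strand for H2-DMb1 and chr17:34145120-34145171 on the plus strand for H2-DMb2.
H2-Aa: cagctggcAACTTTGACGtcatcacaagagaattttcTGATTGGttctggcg
H2-Eb1: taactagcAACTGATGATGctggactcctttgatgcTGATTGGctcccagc
H2-DMb1: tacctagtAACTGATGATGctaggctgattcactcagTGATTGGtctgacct
H2-DMb2: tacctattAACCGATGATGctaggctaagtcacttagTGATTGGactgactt
The X and Y matches lay 19 bases apart in H2-Aa, 17 in H2-Eb1 and 18 in both H2-DMb1 and H2-DMb2, and did not overlap. The Y match began at position -50 from the start site in H2-Aa, -61 in H2-Eb1, -63 in H2-DMb1 and -92 in H2-DMb2. Both strands of 32851 promoters, from 250 bases before to 50 after a start, were searched. An X match was in 5.77% of them, a Y match in 7.82%, and both in this order and 15 to 20 bases apart in 10 promoters (0.0304%). Besides these 4 members, the 10 promoters were those of H2-Ob, BC051142, Cic, Cypt12, Tmc3 and 1700048F04Rik. These letters did not occur in either of the 2 H2-DMa windows. The motif letters were chosen after these promoters had been read, so the matches describe the sequences and bear no test. H2-Ab1, Cd74 and Ciita are named without a sequence.

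In macrophages from IN@OMVs tumours 7 of the 8 class II genes were higher than in Control (edgeR quasi-likelihood test, Benjamini-Hochberg adjusted p under 0.05 over all genes), and 0 were lower. The rise was between 1.64-fold and 1.87-fold for these 7, and H2-DMb2 was the exception. Over all genes tested 6.55% were called in this comparison, 3.32% as higher and 3.24% as lower, and the median log2 fold change was 0.77 over the 8 members and -0.0024 over all genes. In macrophages from OMVs tumours 0 of 8 were called against Control, where 0.42% of all genes were called (0.298% higher and 0.122% lower). Between IN@OMVs and OMVs 0 of 8 were called as well, where 2.85% of all genes were (1.1% higher and 1.75% lower). All fold changes come from 1 fit over the 9 libraries, and both comparisons with Control share the same Control libraries. Of all counts in a library, the 8 genes together took 1.70%, 1.32% and 1.28% with IN@OMVs, 1.01%, 1.02% and 1.15% with OMVs, and 0.868%, 0.856% and 0.796% in Control. In sorted bulk RNA, a change in the number of cells that express a gene and a change in the RNA per cell cannot be told apart.

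**Figure D1:**
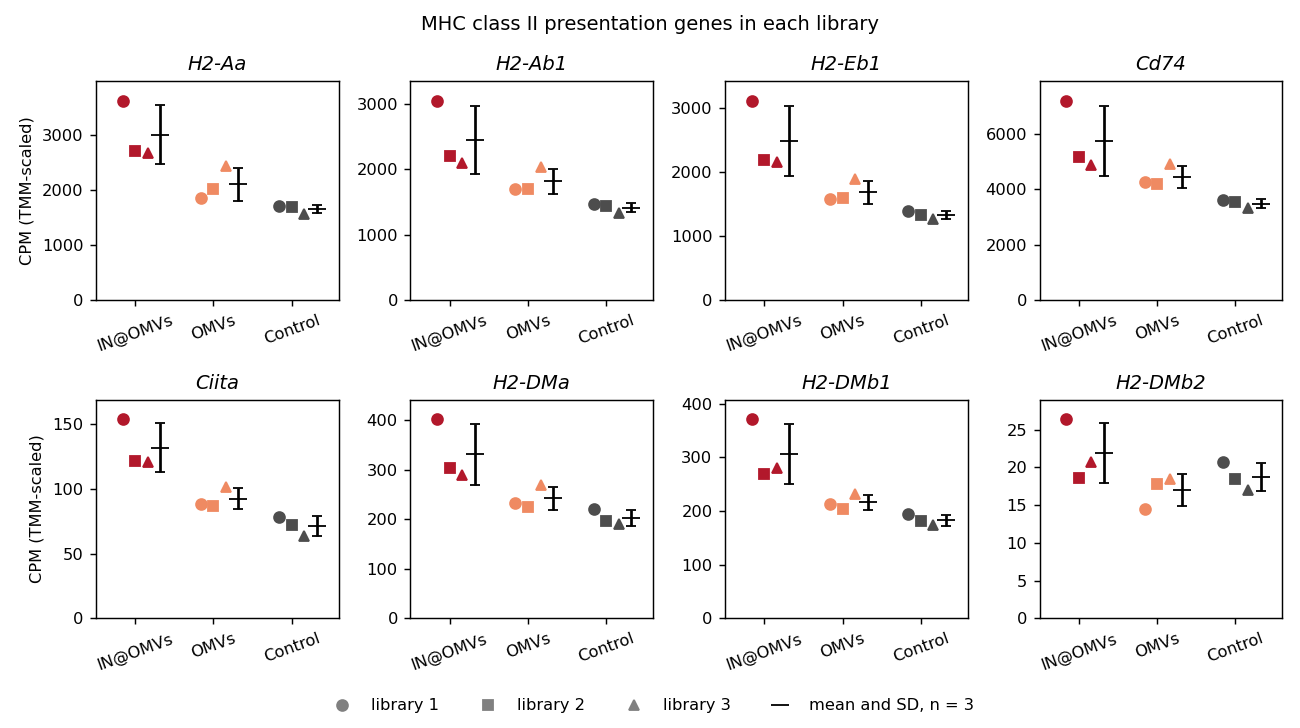
Level of each class II gene in CPM (TMM-scaled, linear axes starting at 0) in the 3 libraries of each group, with mean and SD (n = 3). For 7 genes every IN@OMVs library lies above every Control library, and for H2-DMb2 the groups overlap.

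Ciita encodes the class II transactivator. It stood at 154, 122 and 120.5 CPM in IN@OMVs, 88.6, 86.7 and 102 CPM in OMVs, and 78.4, 72.3 and 63.6 CPM in Control. The 3 groups did not overlap: every IN@OMVs library was above every OMVs library, and every OMVs library above every Control library. Ciita rose 1.85-fold in IN@OMVs against Control, with a log2 fold change of 0.89 ± 0.12 (standard error) and an adjusted p of 0.00238 by edgeR. Its difference was 0.37 ± 0.12 on the log2 scale for OMVs against Control (edgeR adjusted p = 0.335). For IN@OMVs against OMVs it was 0.52 ± 0.12, at an adjusted p of 0.0519 by edgeR, just above the threshold of 0.05. DESeq2 called that difference (adjusted p = 0.00259), as did edgeR with no filter on low counts (adjusted p = 0.0476). Ciita had a fractional expected count in each of the 9 libraries, a sign that some of its reads were shared with other sequences in the authors' counting.

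H2-Aa and H2-Ab1 encode the α and β chains of the I-A molecule. H2-Aa stood at 3623, 2714 and 2673 CPM in IN@OMVs, 1857, 2024 and 2434 CPM in OMVs, and 1707, 1691 and 1569 CPM in Control. H2-Ab1 stood at 3052, 2204 and 2097 CPM in IN@OMVs, 1697, 1708 and 2043 CPM in OMVs, and 1473, 1434 and 1336 CPM in Control. For both genes IN@OMVs 1 was the highest of all libraries, OMVs 3 was the highest of its group, and the 3 groups did not overlap. H2-Aa averaged 3004 ± 537 CPM in IN@OMVs and 1656 ± 75.7 CPM in Control (SD, n = 3 each), a rise of 1.81-fold (log2 0.86 ± 0.14, edgeR adjusted p = 0.00678). H2-Ab1 rose 1.73-fold in the same comparison (log2 0.79 ± 0.14, edgeR adjusted p = 0.0120). In OMVs against Control the log2 fold changes were 0.35 ± 0.14 for H2-Aa and 0.36 ± 0.14 for H2-Ab1, at edgeR adjusted p-values of 0.509 and 0.507. The treated groups differed by 0.51 ± 0.14 and 0.43 ± 0.14 (IN@OMVs against OMVs), at edgeR adjusted p-values of 0.101 and 0.190.

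H2-Eb1 encodes the β chain of the I-E molecule. C57BL/6 mice carry a defective H2-Ea gene and make no I-E α chain. Neither H2-Ea nor H2-Ea-ps was among the genes listed under these symbols, so no level can be given. H2-Eb1 stood at 3112, 2192 and 2151 CPM in IN@OMVs, 1571, 1591 and 1893 CPM in OMVs, and 1395, 1331 and 1262 CPM in Control. Again the groups were fully separated, in the order IN@OMVs, OMVs and Control from high to low. Its rise in IN@OMVs against Control was 1.87-fold (log2 0.90 ± 0.14, edgeR adjusted p = 0.00682). The log2 fold change was 0.34 ± 0.14 in OMVs against Control (edgeR adjusted p = 0.561) and 0.56 ± 0.14 in IN@OMVs against OMVs (edgeR adjusted p = 0.0889).

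Cd74 encodes the invariant chain, which fills the peptide groove of new class II molecules and directs them to endosomes. It stood at 7198, 5156 and 4882 CPM in IN@OMVs, 4247, 4194 and 4919 CPM in OMVs, and 3611, 3532 and 3316 CPM in Control. Every treated library was above every Control library, whereas OMVs 3 was above IN@OMVs 3, so the treated groups overlapped. Cd74 rose 1.65-fold in IN@OMVs against Control (log2 0.72 ± 0.14, edgeR adjusted p = 0.0192). Its log2 fold change was 0.35 ± 0.14 in OMVs against Control (edgeR adjusted p = 0.526) and 0.37 ± 0.14 in IN@OMVs against OMVs (edgeR adjusted p = 0.2785). Of the 7 called genes Cd74 lost its call most often when a library or group was left out: its adjusted p by edgeR was 0.0652, 0.0795 and 0.102 without Control 1, 2 and 3, and 0.0582 with the OMVs libraries left out of the fit.

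H2-DMa and H2-DMb1 encode the α and β chains of the peptide-loading molecule H2-DM. H2-DMa stood at 401, 302 and 289 CPM in IN@OMVs, 233, 224 and 269 CPM in OMVs, and 220.1, 197 and 189.5 CPM in Control. H2-DMb1 stood at 371, 269 and 281 CPM in IN@OMVs, 213.5, 204 and 231 CPM in OMVs, and 194, 182 and 173 CPM in Control. Both genes were separated in the same order as the I-A chains, although the lowest OMVs and the highest Control library of H2-DMa were close. H2-DMa rose 1.64-fold in IN@OMVs against Control (log2 0.71 ± 0.13, edgeR adjusted p = 0.0130), and H2-DMb1 rose 1.68-fold (log2 0.75 ± 0.12, edgeR adjusted p = 0.00638). In OMVs against Control the log2 fold changes were 0.26 ± 0.13 and 0.24 ± 0.12 for H2-DMa and H2-DMb1, at edgeR adjusted p-values of 0.669 and 0.662. H2-DMb1 differed in IN@OMVs against OMVs by 0.50 ± 0.12 (edgeR adjusted p = 0.0617) and H2-DMa by 0.45 ± 0.13 (edgeR adjusted p = 0.132).

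H2-DMb2, a second β chain gene of H2-DM, did not pass the test in any comparison. It stood at 26.4, 18.65 and 20.7 CPM in IN@OMVs, 14.5, 17.8 and 18.5 CPM in OMVs, and 20.7, 18.5 and 17.0 CPM in Control. IN@OMVs 1 was the highest library and OMVs 1 the lowest, and the IN@OMVs and Control ranges overlapped. Its log2 fold change was 0.22 ± 0.15 in IN@OMVs against Control, with a 95% interval from -0.11 to 0.56 (edgeR adjusted p = 0.460). It was -0.14 ± 0.15 in OMVs against Control, with an interval from -0.48 to 0.19 (edgeR adjusted p = 0.925), and 0.37 ± 0.15 in IN@OMVs against OMVs (edgeR adjusted p = 0.296). The H2-DMb1 and H2-DMb2 transcripts are near copies, identical at 94.8% of 1248 aligned bases in GENCODE vM21, and 26.8% of the 50-base stretches of H2-DMb2 also occur in H2-DMb1. Both genes had fractional expected counts in all 9 libraries. How the authors' counting divided shared reads between them is not known, so the level of H2-DMb2 is uncertain.

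Per transcript length the members lay at distinct levels. Cd74 came first, with 4075, 3158 and 2473 CPM per kb in IN@OMVs, OMVs and Control. H2-Aa followed with 2663, 1866 and 1468 CPM per kb, then H2-Ab1 with 2022, 1498 and 1167 and H2-Eb1 with 1489, 1010 and 796.5 CPM per kb. The H2-DM chains were far lower: H2-DMb1 had 219, 154 and 130.4 CPM per kb and H2-DMa 199.5, 146 and 122 CPM per kb. Ciita and H2-DMb2 were lowest, at 21.99, 15.37 and 11.89 CPM per kb for Ciita and 15.4, 11.9 and 13.2 CPM per kb for H2-DMb2. In IN@OMVs the SD of H2-DMb1 and H2-DMa was 39.7 and 36.9 CPM per kb, wider than the gap between them, and that of H2-Aa and H2-Ab1 was 476 and 432 CPM per kb, narrower than theirs. The genes of each pair rose and fell together over the libraries (r = 0.99 for both pairs). An SD between libraries therefore does not measure the spread of such a gap and does not decide the order. The order of Ciita and H2-DMb2 was turned round in Control, where their SDs were 1.24 and 1.30 CPM per kb. Lengths are those of 1 GENCODE vM21 transcript per gene and may differ from the authors' annotation.

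**Figure D2:**
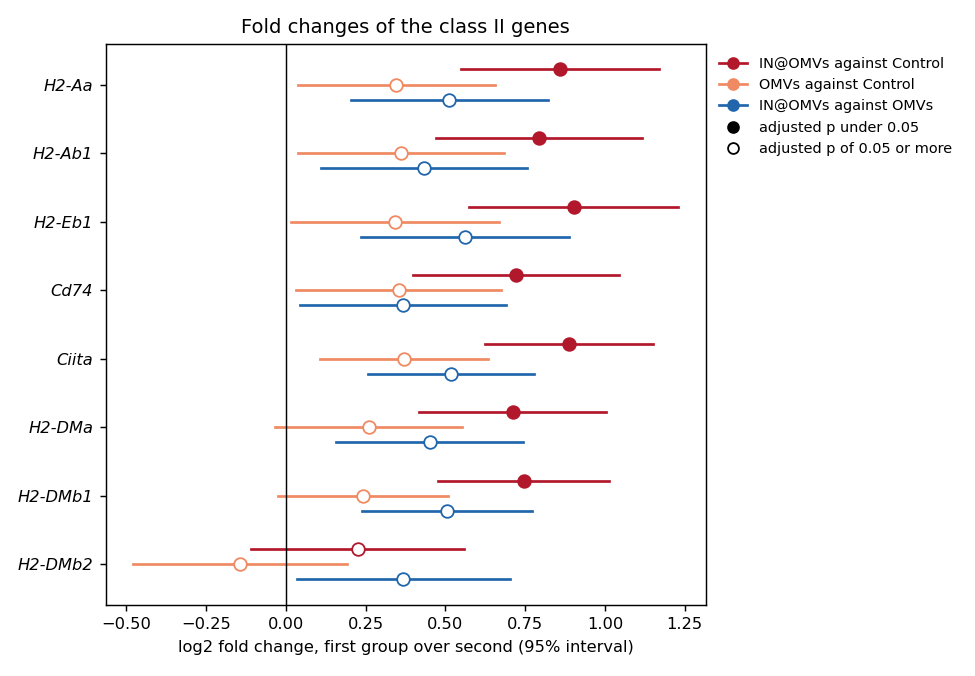
Log2 fold change of each class II gene in each comparison, first group over second, with its 95% interval from the edgeR fit. Filled points, all of them IN@OMVs against Control, have an adjusted p under 0.05, and open points do not.

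OMVs stood between IN@OMVs and Control for 7 of the 8 genes. For these 7 every OMVs library was above every Control library, which held for 9.89% of all genes tested. Of the 8 genes, 5 had an unadjusted p under 0.05 in that comparison, against 8.44% of all genes, and 0 were called by edgeR, DESeq2 or limma-voom. The median log2 fold change over the 8 was 0.34, and -5e-04 over all genes. In IN@OMVs against OMVs 8 of 8 had an unadjusted p under 0.05, against 14.4% of all genes, and for 7 of them every IN@OMVs library was above every OMVs library, against 8.86% of all genes. DESeq2 called 5 of the 8 there (H2-Aa, H2-Eb1, Ciita, H2-DMa and H2-DMb1), edgeR and limma-voom 0. The median over the 8 was 0.48, and -0.0035 over all genes. For 7 of 8 genes every IN@OMVs library was above every Control library, against 13.3% of all genes, and the same number had an unadjusted p under 0.05 there, against 19.8%.

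IN@OMVs 1, the library low in fibroblast markers, was the highest library for all 8 genes. Without it the 7 calls in IN@OMVs against Control stood, with log2 fold changes of 0.70 for H2-Aa, 0.60 for H2-Ab1, 0.70 for H2-Eb1, 0.52 for Cd74, 0.76 for Ciita, 0.54 for H2-DMa and 0.58 for H2-DMb1. H2-DMb2 was then at 0.07. Without library 1 of every group the same comparison also called 7 members. In OMVs against Control 2 members were called without IN@OMVs 1 (H2-Ab1 and Cd74) and 4 without library 1 of every group (H2-Aa, H2-Ab1, H2-Eb1 and Ciita). IN@OMVs 1 is in neither of those groups, and leaving it out narrowed the standard errors of the shared fit. The log2 fold change of H2-Ab1 went from 0.361 ± 0.142 to 0.357 ± 0.078, and that of Cd74 from 0.353 ± 0.142 to 0.3495 ± 0.070. Between IN@OMVs and OMVs 3 were called without IN@OMVs 1 (H2-Eb1, Ciita and H2-DMb1), although every member's log2 difference was smaller there. It was then 0.35 for H2-Aa, 0.24 for H2-Ab1, 0.36 for H2-Eb1, 0.17 for Cd74, 0.39 for Ciita, 0.29 for H2-DMa, 0.34 for H2-DMb1 and 0.21 for H2-DMb2. Leaving out Control 2 or Control 3 reduced the calls in IN@OMVs against Control to 4 of 8 each, H2-Ab1, Cd74 and H2-DMa being no longer called, and leaving out Control 1 to 6, without Cd74.

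**Figure D3:**
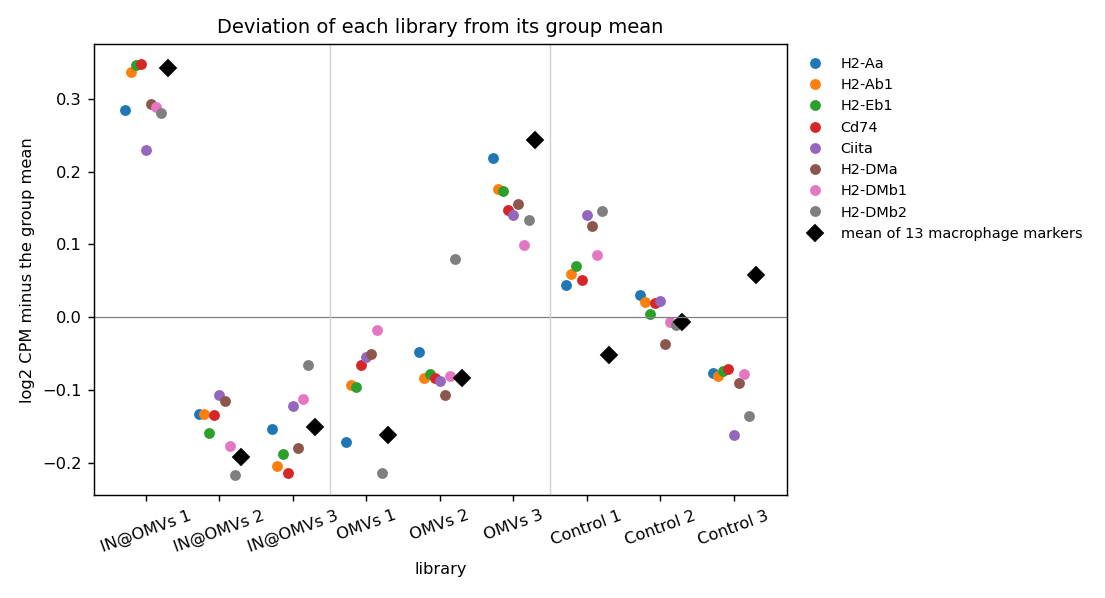
Deviation of each library's log2 CPM from its group mean, for each class II gene and for the mean of 13 macrophage markers (black diamonds). IN@OMVs 1 is 0.23 to 0.35 above its group mean for all 8 genes, and the marker mean is 0.34 above.

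Within a group the class II genes deviated together. In IN@OMVs 1 all 8 lay 0.23 to 0.35 above the group mean on the log2 scale, and in OMVs 3 they lay 0.10 to 0.22 above. The mean of the 13 macrophage markers deviated in the same 2 libraries, by 0.34 in IN@OMVs 1 and 0.24 in OMVs 3. In Control the members were highest in library 1 and lowest in library 3, whereas the macrophage markers were lowest in library 1 and highest in library 3. Over all 9 libraries the correlation between any pair of the 7 genes other than H2-DMb2 was 0.97 to 0.998, and that of H2-DMb2 with the others 0.63 to 0.70. After removal of the group means these ranges were 0.88 to 0.997 and 0.79 to 0.88. These correlations describe 9 libraries, whose points share library, depth and scaling factor, and bear no test.

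Set against the macrophage markers of the same library, the members were higher in IN@OMVs. The mean log2 CPM of the members minus that of the markers came to -0.45, -0.365 and -0.415 for the IN@OMVs libraries, -0.71, -0.75 and -0.86 for the OMVs libraries, and -0.83, -0.96 and -1.13 for the Control libraries. Every IN@OMVs library was above every other library, and the OMVs and Control ranges overlapped. With the marker mean as a covariate in the fit, 7 members were called in IN@OMVs against Control, 4 in OMVs against Control and 7 in IN@OMVs against OMVs. In that fit the log2 fold change of H2-Aa was 0.72, 0.28 and 0.44 in these 3 comparisons. The covariate was added after the data had been seen. It is itself measured in the libraries compared, and its genes moved in both directions between the groups.

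**Figure D4:**
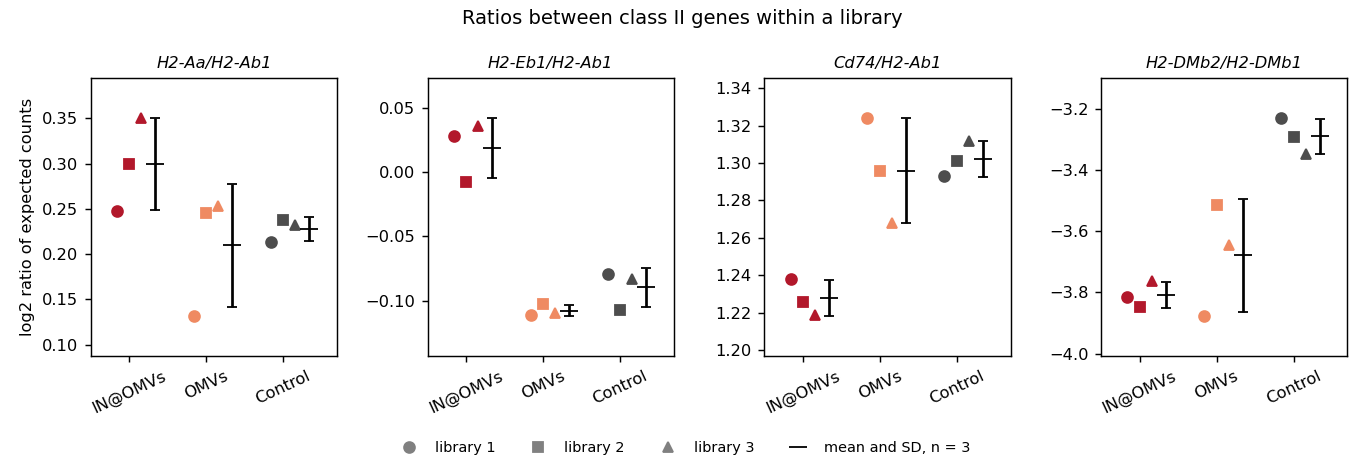
Log2 ratio of expected counts between pairs of class II genes in each library, with mean and SD (n = 3), on axes that do not start at 0. H2-DMb2 to H2-DMb1 is lower in each treated library than in the Control libraries, and H2-Eb1 to H2-Ab1 is higher in the IN@OMVs libraries than in the others.

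Ratios between members within a library do not depend on depth or scaling, and 7 of them were followed over the groups. H2-Eb1 to H2-Ab1 was 0.02 ± 0.02 with IN@OMVs, -0.11 ± 0.0044 with OMVs and -0.09 ± 0.02 in Control on the log2 scale (SD, n = 3 each). Cd74 to H2-Ab1 was 1.23 ± 0.0096 with IN@OMVs, 1.30 ± 0.03 with OMVs and 1.30 ± 0.0095 in Control. Both ratios separated the IN@OMVs libraries from all others, H2-Eb1 upward and Cd74 downward. H2-DMb2 to H2-DMb1 was -3.81 ± 0.04 with IN@OMVs, -3.68 ± 0.18 with OMVs and -3.29 ± 0.06 in Control, lower in all 6 treated libraries than in the 3 Control libraries. H2-Aa to H2-Ab1 was 0.30 ± 0.05 with IN@OMVs, 0.21 ± 0.07 with OMVs and 0.23 ± 0.01 in Control. The I-A, H2-DM and Ciita ratios overlapped between OMVs and Control, H2-DMb2 to H2-DMb1 excepted. With 3 libraries against 3, the two-sided exact permutation test cannot give a p below 0.1. That value was reached for H2-Eb1 to H2-Ab1 and Cd74 to H2-Ab1 in IN@OMVs against Control and against OMVs, and for H2-Aa to H2-Ab1 in IN@OMVs against Control. H2-DMb2 to H2-DMb1 reached it in both comparisons with Control. Adjusted over the 21 ratio tests made, each of these stood at 0.3 (exact permutation test, Benjamini-Hochberg), so 0 ratios passed.

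Other cells that carry class II were measured by their markers. Of 13 markers of conventional dendritic cells, 3 rose in IN@OMVs against Control and 0 fell, by edgeR: Batf3 (log2 1.33 ± 0.26, adjusted p = 0.0168), Clec9a (1.31 ± 0.22, adjusted p = 0.00832) and Naaa (0.51 ± 0.11, adjusted p = 0.0250). Batf3, a transcription factor of that lineage, also rose in IN@OMVs against OMVs (1.17 ± 0.25, edgeR adjusted p = 0.0476), and 0 were called in OMVs against Control. Over all genes tested 3.32% were called as higher and 3.24% as lower in IN@OMVs against Control. In OMVs against Control 0.42% of all genes were called, and in IN@OMVs against OMVs 2.85%. The summed marker level was 476 to 578 CPM in IN@OMVs, 457 to 489 CPM in OMVs and 380 to 440 CPM in Control, most of it Naaa at 251 to 438 CPM. The list was split in direction: 8 of the 13 had a positive log2 fold change in IN@OMVs against Control, with a median of 0.27. The lineage genes Flt3, Zbtb46, Xcr1 and Clec9a were each under 10 CPM in every library. Of these, Flt3 was lower in IN@OMVs, at 2.83, 2.05 and 3.725 CPM, against 7.33, 3.80 and 3.745 CPM in Control. This fall was not called, and the OMVs libraries stood at 3.62, 2.565 and 2.63 CPM. Xcr1 went the other way without a call, at 3.26, 1.94 and 1.92 CPM in IN@OMVs against 1.55, 0.99 and 1.04 CPM in Control. Clec9a was also higher in every IN@OMVs library than in every Control library, whereas the Zbtb46 levels overlapped. Of 11 B cell markers 7 were tested and 0 called, and their sum was 36.4 to 42.9 CPM. Most of that sum was Ebf1, at 7.45 to 21.9 CPM and lowest in IN@OMVs 1, and Cd22. The Cd22 levels were 19.1, 15.1 and 15.8 CPM in IN@OMVs, above the 10.1, 10.3 and 11.1 CPM in Control. Cd79a, which encodes a chain of the B cell receptor complex, lay between 0 and 0.83 CPM. Plasmacytoid dendritic cell markers summed to 1.46 to 5.13 CPM. The part of dendritic cells in the class II levels was not tested.

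Most monocyte and neutrophil markers were lower in IN@OMVs, where the class II genes were higher. Of 8 monocyte markers 6 fell in IN@OMVs against Control by edgeR, and of 9 neutrophil markers 8 fell. Over all genes tested 3.24% were called as lower in that comparison. The monocyte marker Ly6c2 went the other way, the only 1 of the 8 with a positive log2 fold change. It was 0.39 ± 0.23 in IN@OMVs against Control (edgeR adjusted p = 0.394), and the Ly6c2 levels of these 2 groups overlapped. Neutrophil markers summed to 129 to 195.5 CPM in IN@OMVs, 560 to 745 CPM in OMVs and 785 to 1149 CPM in Control, and monocyte markers to 1264 to 1487 CPM, 1896 to 2240 CPM and 2636 to 2907 CPM. The groups did not overlap in either sum. Their part in the class II levels was not tested.

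The wider class II pathway was followed through 35 further gene symbols in 6 lists, of which 31 were listed and tested. Those not listed were H2-Ea, H2-Ea-ps, March1 and March8. The last 2 are older symbols of Marchf1 and Marchf8, which were both tested. In IN@OMVs against Control 3 of the 31 rose and 0 fell by edgeR, with a median log2 fold change of 0.08. In OMVs against Control 2 rose and 0 fell (median 0.04), and in IN@OMVs against OMVs 2 rose and 0 fell (median 0.02). Over all genes tested 6.55%, 0.42% and 2.85% were called in these 3 comparisons, with 3.32%, 0.298% and 1.1% called as higher. The medians over all genes were -0.0024, -5e-04 and -0.0035. The pathway genes called were all of the interferon-γ signalling list, and Irf1 and Socs1 are described here.

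**Figure D5:**
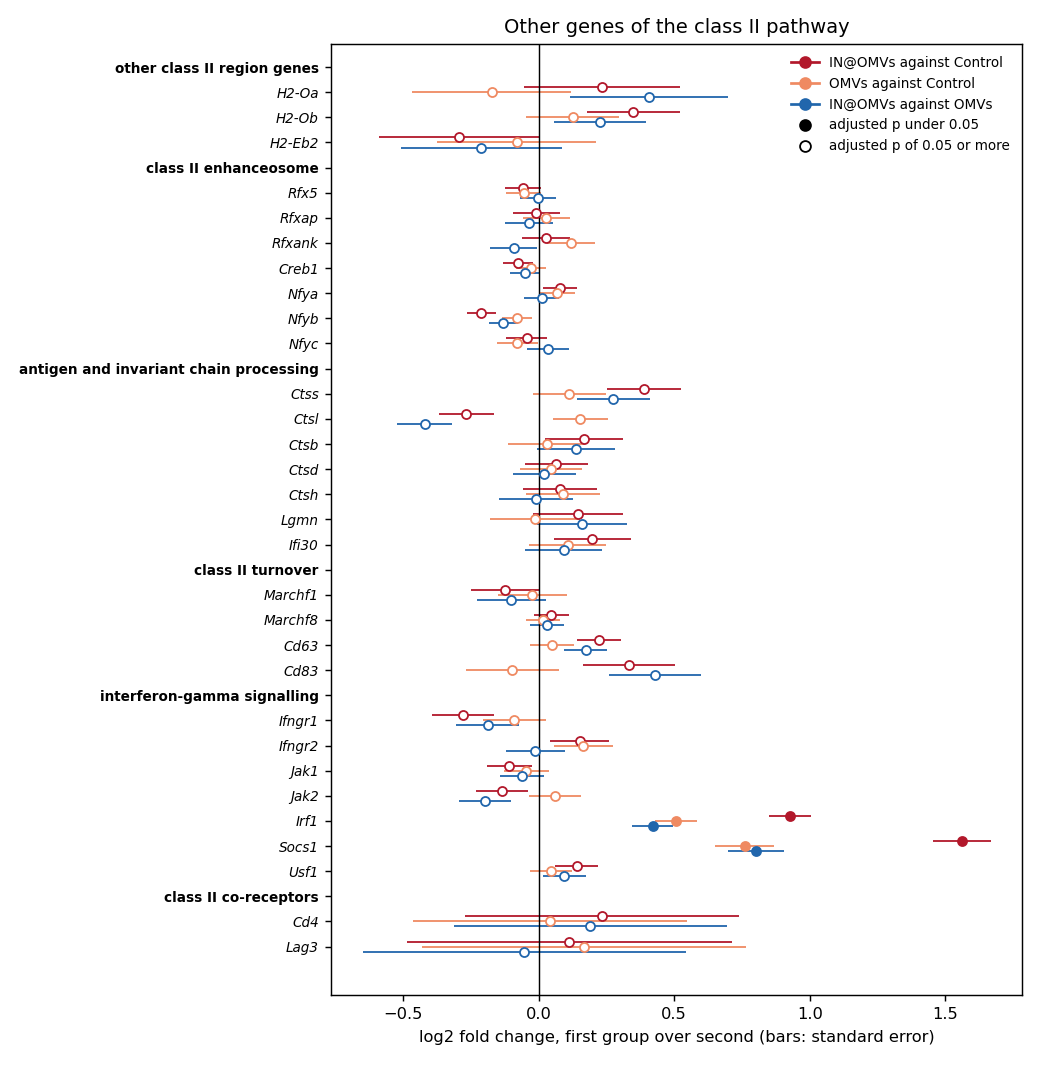
Log2 fold change, first group over second, of other class II pathway genes, by list, with the standard error of the fit. Filled points have an edgeR adjusted p under 0.05, and all of them lie in the interferon-γ signalling list.

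Irf1, a transcription factor induced by interferons, stood at 321, 275 and 303 CPM in IN@OMVs, 217, 230.2 and 224 CPM in OMVs, and 171, 146.5 and 155.5 CPM in Control. The groups did not overlap. Irf1 rose by 0.93 ± 0.08 on the log2 scale in IN@OMVs against Control (edgeR adjusted p = 0.000234), by 0.51 ± 0.08 in OMVs against Control (0.0375) and by 0.42 ± 0.08 in IN@OMVs against OMVs (0.0212). Socs1, an inhibitor of cytokine signalling that interferons induce, stood at 36.2, 32.85 and 27.6 CPM in IN@OMVs, 17.7, 19.2 and 18.6 CPM in OMVs, and 11.4, 11.2 and 10.2 CPM in Control. Its groups did not overlap, and its log2 fold change in IN@OMVs against Control was the largest of the 31 genes. It rose by 1.56 ± 0.11 in IN@OMVs against Control (edgeR adjusted p = 0.0001), by 0.76 ± 0.11 in OMVs against Control (0.0320) and by 0.80 ± 0.10 in IN@OMVs against OMVs (0.00456). With the replicate number as a block the OMVs against Control calls were lost, at edgeR adjusted p-values of 0.0698 for Irf1 and 0.0603 for Socs1. Leaving out a library also ended the Irf1 and Socs1 calls in OMVs against Control: Irf1 was then called in 2 of 9 fits and Socs1 in 1. In IN@OMVs against OMVs Irf1 was called in 4 of those 9 fits and Socs1 in 9.

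The receptor chains Ifngr1 and Ifngr2, the kinases Jak1 and Jak2 and the transcription factor Usf1 were called in 0 comparisons. Most genes of the whole table were not called either, with 6.55% called in IN@OMVs against Control. Ifngr1 had a log2 fold change of -0.28 ± 0.12 in IN@OMVs against Control (edgeR adjusted p = 0.221).

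The DNA-binding proteins through which CIITA acts were called in 0 of 7 cases in each comparison. Of all genes 6.55% were called in IN@OMVs against Control, 0.42% in OMVs against Control and 2.85% in IN@OMVs against OMVs. A count of 0 therefore does not set these 7 genes apart. Rfx5, the large subunit of the RFX complex, stood at 25.3, 25.5 and 26.4 CPM in IN@OMVs, 25.9, 26.5 and 24.9 CPM in OMVs, and 28.3, 25.3 and 26.7 CPM in Control. Its libraries overlapped, and its log2 fold change in IN@OMVs against Control was -0.06 ± 0.07, with a 95% interval from -0.21 to 0.09 (edgeR adjusted p = 0.696). Over the 7 genes (Rfx5, Rfxap, Rfxank, Creb1, Nfya, Nfyb and Nfyc) the log2 fold changes in that comparison lay between -0.21 and 0.08.

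The remaining genes of the class II region were low and were not called. H2-Oa and H2-Ob encode the chains of H2-DO, an inhibitor of H2-DM found mainly in B cells. H2-Ob averaged 8.02 ± 1.415 CPM in IN@OMVs, 6.86 ± 0.30 CPM in OMVs and 6.29 ± 1.07 CPM in Control, with a log2 fold change of 0.35 ± 0.17 in IN@OMVs against Control (edgeR adjusted p = 0.306). H2-Oa averaged 3.78, 2.84 and 3.21 CPM and H2-Eb2, a further β chain gene, 1.88, 2.18 and 2.315 CPM in the same order of groups. Their log2 fold changes in IN@OMVs against Control were 0.23 ± 0.29 and -0.29 ± 0.30 (edgeR adjusted p = 0.736 and 0.660). At this depth a change of the size seen in H2-Aa lies within the 95% intervals of H2-Oa, up to 0.89, but outside that of H2-Eb2, up to 0.38.

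Proteases and other processing enzymes were called in 0 of 7 cases in each comparison. The same shares of all genes, 6.55%, 0.42% and 2.85%, apply here, so a count of 0 does not set these genes apart. Ctss encodes cathepsin S, which cuts the invariant chain. It stood at 4793, 3647 and 3784 CPM in IN@OMVs, 2936, 3170 and 3995 CPM in OMVs, and 3024, 3082 and 3239 CPM in Control. Every IN@OMVs library was above every Control library, with a log2 fold change of 0.39 ± 0.14 (edgeR adjusted p = 0.147). Ifi30, a thiol reductase of endosomes, had a log2 fold change of 0.20 ± 0.14 (edgeR adjusted p = 0.506). Of the 4 turnover genes measured, which include the ubiquitin ligase Marchf1, and of the co-receptors Cd4 and Lag3, 0 were called in any comparison.

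Genes were ranked by how nearly their levels ran in parallel with the members over the 9 libraries. The measure was Pearson's r with the mean standardised log2 CPM of the 8. The ranking covered 10566 genes with a mean of at least 5 CPM, the members and predicted gene models (Gm and Rik names) left out. The 10 closest were H2-T24 (r = 0.992), Plaat3 (0.990), Cd40 (0.989), Fads1 (0.989), H2-T23 (0.988), Trim14 (0.988), Irf8 (0.988), Ifi211 (0.986), Uba7 (0.986) and Trafd1 (0.985). The margin between ranks was small, with r = 0.969 at rank 50, and 6 to 9 of these 10 stayed in the list when 1 library was left out. Cd40, a co-stimulatory receptor, stood at 66.4, 42.9 and 46.0 CPM in IN@OMVs, 32.2, 31.5 and 40.7 CPM in OMVs, and 27.7, 24.9 and 24.8 CPM in Control. Irf8, a transcription factor of myeloid cells, stood at 272, 206 and 195 CPM in IN@OMVs, 160, 160 and 188 CPM in OMVs, and 164, 149 and 148 CPM in Control. In both, as in the members, IN@OMVs 1 and OMVs 3 were the highest of their groups. The ranking picked genes for such likeness over these same libraries, so this adds nothing to it. H2-T24 and H2-T23 belong to the non-classical class I family, whose close copies can share reads, so their levels are uncertain. These likenesses rest on 9 libraries that share depth and scaling, and are given without a test.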

How the data were processed

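RNA was measured in 9 libraries of sorted tumour macrophages, 3 each for IN@OMVs, OMVs and Control. The deposited table holds expected counts per gene, estimated by the authors and not normalised; this was settled from the values, of which 88.8% to 89.6% per library were whole. The tools BWA, Bowtie2 and RSEM and the builds mm9 and hg19 are listed, per the submitters' processing notes, with no role or version; the sources used here do not state which of them made the table.

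Rounded expected counts entered edgeR 4.0.16 (R 4.3.3): TMM factors, filterByExpr by group, a quasi-likelihood fit with 1 mean per group over all 9 libraries (6 residual degrees of freedom, biological coefficient of variation 0.131), contrasts, and Benjamini-Hochberg adjustment over 13090 genes at a threshold of 0.05. CPM are TMM-scaled, with a prior count of 2 on the log2 scale. DESeq2 1.42.0 and limma 3.58.1 (limma-voom) served as alternatives, with DESeq2 size factors, no filter, a replicate block, only the groups compared, and libraries left out. The steps were tested on simulated data.

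The members, pathway lists, marker lists and alternatives were chosen with earlier results of these data known. All members are named whatever their p; of each pathway list the genes past the threshold in any comparison and a fixed few are named, and other genes named are examples chosen after their values were seen. Some genes of these lists are counted but not reported here by name. What a replicate number marks is not in the labels. The main fit did not pair libraries by number. The replicate block, an alternative, did so in all 3 comparisons, an assumption that the labels do not give. Deviations from the group means correlated between libraries of the same number at 0.454, 0.31 and 0.149 for IN@OMVs and Control. For OMVs and Control the values were 0.532, 0.375 and 0.12, and for IN@OMVs and OMVs 0.073, 0.507 and -0.374. Libraries of different number could correlate as much (IN@OMVs 2 and Control 3 at 0.36, IN@OMVs 3 and Control 2 at 0.295, OMVs 2 and Control 3 at 0.35), so numbers 2 and 3 are not told apart.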

Additional observations from a re-analysis of the deposited data

How the results depend on the processing

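The 7 calls in IN@OMVs against Control held with DESeq2, limma-voom, DESeq2 size factors, no filter, the replicate block and the macrophage covariate; 6 held with only the groups compared, 4 to 7 with 1 library left out and 7 without library 1 of every group. The member calls in OMVs against Control, 0 in the main analysis, were 4 with the covariate, 0 to 2 with 1 library left out and 4 without library 1 of every group. Those in IN@OMVs against OMVs, also 0, were 5 with DESeq2, 1 without a filter, 7 with the covariate, 0 to 3 with 1 library left out and 2 without library 1 of every group. The replicate block changed no member's call in any of the 3 comparisons. It ended the 2 pathway calls in OMVs against Control (0 left) and took that comparison's calls over all genes to 20, against 55 without it. It took the calls over all genes to 673 in IN@OMVs against Control and to 306 in IN@OMVs against OMVs. The calls of cell type markers were not refitted with the block.

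Over all genes, IN@OMVs against Control gave 858 calls, 519 with only the groups compared, 1978 with the covariate and 393 to 1635 with 1 library left out and 1475 without library 1 of every group. OMVs against Control gave 55, against 207 with DESeq2, 36 with limma-voom, 115 with only the groups compared, 385 with the covariate and 0 to 266 with 1 library left out and 313 without library 1 of every group. IN@OMVs against OMVs gave 373, against 646 with DESeq2, 195 with only the groups compared, 1137 with the covariate and 180 to 786 with 1 library left out and 844 without library 1 of every group. Pathway calls in the same order of comparisons were 3, 2 and 2. With 1 library left out they were 3 to 5, 0 to 3 and 1 to 4, and without library 1 of every group 7, 3 and 6. The covariate gave 8 in the first and 5 in the third, limma-voom 1 in the second and DESeq2 4 in the third. Some of these pathway calls were falls. Without library 1 of every group 3 of the 7 and 4 of the 6 were lower. With the covariate 4 of the 8 and 1 of the 5 were lower, and with DESeq2 1 of the 4. Without IN@OMVs 1, 2 of the 5 in the first and 1 of the 4 in the third were lower. Without OMVs 1, 1 of the 2 in the third was lower. The causes of these shifts were not tested.

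Some log2 fold changes close to 0 turned sign. Without library 1 of every group, H2-DMb2 was at 0.032, H2-Oa at 0.086 and H2-Eb2 at 0.32 in OMVs against Control, H2-Eb2 at 0.12 in IN@OMVs against Control, and Rfx5 at 0.011 and Ifi30 at -0.12 in IN@OMVs against OMVs. With 1 library left out, H2-Oa ranged from -0.050 to 0.56 and H2-Eb2 from -0.54 to 0.11 in IN@OMVs against Control. In OMVs against Control H2-Oa ranged from -0.32 to 0.15, H2-Eb2 from -0.33 to 0.32 and Ctss from -0.030 to 0.20. In IN@OMVs against OMVs Rfx5 ranged from -0.027 to 0.018 and Ifi30 from -0.10 to 0.18. H2-Eb2 was at 0.013 with limma-voom in OMVs against Control, and Rfx5 at 0.0068 with the covariate in IN@OMVs against OMVs.

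Of 136 alternative values of the 8 members per comparison, 128, 125 and 117 kept direction and call in IN@OMVs against Control, OMVs against Control and IN@OMVs against OMVs; 8 lost the call in the first, 10 and 19 gained it in the others. A missing call does not show that levels were alike.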
